A study of Mus musculus with 4 samples.

Results

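D-type cyclins, the kinases they activate, the inhibitors of those kinases and the retinoblastoma protein were examined as a set of 9 genes in mouse spleen. The set was Ccnd1, Ccnd2, Ccnd3, Cdk4, Cdk6, Cdkn1a, Cdkn1b, Cdkn2c and Rb1, and its members were taken as every probe set, a group of short oligonucleotides read as 1 value, whose platform annotation gives 1 of these symbols. This gave 13 probe sets for 8 genes, of 12422 probe sets for 8251 named genes. Cdk6 was named by no probe set, so its expression is not analysed here. Ccnd2 was named by a single probe set, so a comparison of separate Ccnd2 probe sets could not be made. The set was selected on measured values, with the difference of Ccnd2 between knockout and wild type in these arrays already known, so the differences of its members between genotypes are given as a description, with standard errors and without p-values.

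The samples were 2 Nrf2 knockout spleens (nrf2 -/-) and 2 wild-type spleens (nrf2 +/+), all from female mice 5 months old, and each was measured on a 1-colour expression array of total RNA. Nrf2, encoded by Nfe2l2, is a transcription factor that induces genes of detoxification and antioxidant defence. The founders were wild-type mice of a C57B6/SJL background and knockout mice of a C57B6/129SVJ background. Their heterozygous offspring were interbred, and the knockouts and wild-type littermates came from those matings. All mice ate the same diet and received no treatment in the labels, and the age precedes severe autoimmune disease in this line per the labels. Whether an array holds 1 mouse or a pool is not stated, so the spread between arrays of a genotype may be technical.

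D-type cyclins are the growth-factor-dependent partners of Cdk4 and Cdk6. The complexes phosphorylate the retinoblastoma protein, which releases E2F factors and lets a cell enter S phase. Inhibitors of the Cip/Kip family (Cdkn1a, Cdkn1b) bind cyclin-kinase complexes, and inhibitors of the Ink4 family (Cdkn2c) bind Cdk4 and Cdk6. In the mouse, resting lymphocytes hold little D cyclin, and B cells make cyclin D2 when their antigen receptor is engaged.

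Nfe2l2 read 202 and 178.6 in the knockout arrays, against 3537 and 6321 in the wild-type arrays. Wild-type replicate 1 stood apart: across 7453 tested probe sets its Pearson's r with the other arrays was 0.849 to 0.851, against 0.938 to 0.947 among the other 3. RNA and labelling quality was read from the Gapdh control probe sets, as 3′ over 5′ intensity. This was 25.5 and 34.8 in the knockout arrays, against 88.3 and 8.07 in the wild-type arrays. For the beta-actin control it was 19.3 and 16.1 in the knockout arrays, against 14.4 and 8.86 in the wild-type arrays, so by this control both knockouts lay above both wild types. In all 4 arrays the 3′ end of both controls read at least 8.07-fold the 5′ end. The part of this measure in the differences below was not tested. Spleen markers were present in all 4 arrays. The summed intensity of 8 B cell markers was 170307 and 146917 in knockouts, against 320554 and 171111 in wild types. The summed intensity of 9 T cell markers was 45809 and 38597 in knockouts, against 76890 and 52015 in wild types. In bulk spleen, fewer cells of a type and less RNA per cell cannot be told apart.

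Nrf2 binds the antioxidant response element with small Maf proteins, and the promoter windows of the members show where its core letters occur. RefSeq windows of the GRCm38.p6 build, 250 bases before to 50 after an annotated start, were held for 6 members in 9 windows. The 6 members include Cdk6, which was named by no probe set. No window was held for Ccnd1, Ccnd2 and Rb1, so the motif counts do not cover Ccnd2. The core TGACNNNGC was searched on both strands and occurred in 4 of the 9 windows, and in 12.4% of all 32851 windows. The matches are shown in capitals within up to 10 bases on each side, because Nrf2 is the factor that the knockouts lack.
Ccnd3, chr17:47504876-47504904, plus strand: cccctaagccTGACGGAGCaaccccgccc
Cdk4, chr10:127063285-127063310, plus strand: gttgccaTGACACCGCcttgtgctcc
Cdk4, chr10:127063392-127063420, plus strand: gcttcccagcGCAAAGTCAaggggtcacg
Cdkn1a, chr17:29093786-29093814, plus strand: gtgagccgccGCGGTGTCAgagtctaggg
Cdkn1b, chr6:134920389-134920417, plus strand: aaatagacttGCAGTGTCAatcatcttct
The Ccnd3 match began 165 bases before the start, the Cdk4 matches 243 and 133 bases before, the Cdkn1b match 2 bases before and the Cdkn1a match 27 bases after. A match of these letters is a description and is not evidence of binding.

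The Cdk4 window is shown whole because it holds 2 of the 5 core matches and also 4 E-boxes, the letters CACGTG that Myc and Max recognise. An E-box occurred in 3 of the 9 member windows and in 7.15% of all windows, and 4 or more occurred in 8 of the 32851 windows. Both motifs are in capitals, and no match of 1 overlapped a match of the other.
Cdk4, chr10:127063285-127063584, plus strand: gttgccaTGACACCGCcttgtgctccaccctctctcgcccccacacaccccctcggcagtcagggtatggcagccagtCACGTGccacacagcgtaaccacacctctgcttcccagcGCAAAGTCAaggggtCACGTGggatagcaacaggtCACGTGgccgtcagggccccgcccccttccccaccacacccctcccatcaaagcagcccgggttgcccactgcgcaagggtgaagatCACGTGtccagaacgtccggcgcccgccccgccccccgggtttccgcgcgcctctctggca
The E2F letters TTTCCCGC and TTTGGCGC occurred in 0 of the 9 member windows and in 1.56% of all windows.

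Ccnd2 measured higher in knockout spleen, while the values of Ccnd1 and Ccnd3 overlapped between the genotypes. The Ccnd2 probe set (97504_at, accession M83749) read 2740 and 1444 in the knockout arrays, against 389.2 and 506.7 in the wild-type arrays. Both knockout values lay above both wild-type values, and the lower knockout value was 2.85-fold the higher wild-type value. This is a log2 difference of 2.16 (SE 0.49, n = 2 per group, as for every difference here), or 4.48-fold higher in knockout. Every SE here is from the limma fit, which pulls each probe set's spread toward that of probe sets of similar intensity. It can be smaller or larger than an SE taken from the probe set's own arrays alone. Intensities below a floor of 185.5, the 25th percentile over all arrays, were raised to it before log2 was taken, and no Ccnd2 value was below it.

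Among all 7453 tested probe sets, 6 had a more positive difference than Ccnd2, and 99.7% had a smaller difference in either direction. Because the set was chosen with this difference already known, the rank is a description and not a test of it. The Ccnd2 difference was 1.97 without wild-type replicate 1, the array that stood apart, and 2.35 without wild-type replicate 2. The knockout arrays differed from each other by 1.90-fold on this probe set, the wild-type arrays by 1.30-fold. The difference was 1.70 without knockout replicate 1 and 2.63 without knockout replicate 2. Probe sets were tested only where their mean log2 intensity over the 4 arrays was above 8.87, and Ccnd2 reached 9.88 through the knockout arrays, with a wild-type mean of 8.79. No second probe set of Ccnd2 was at hand to measure it independently.

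**Figure D1:**
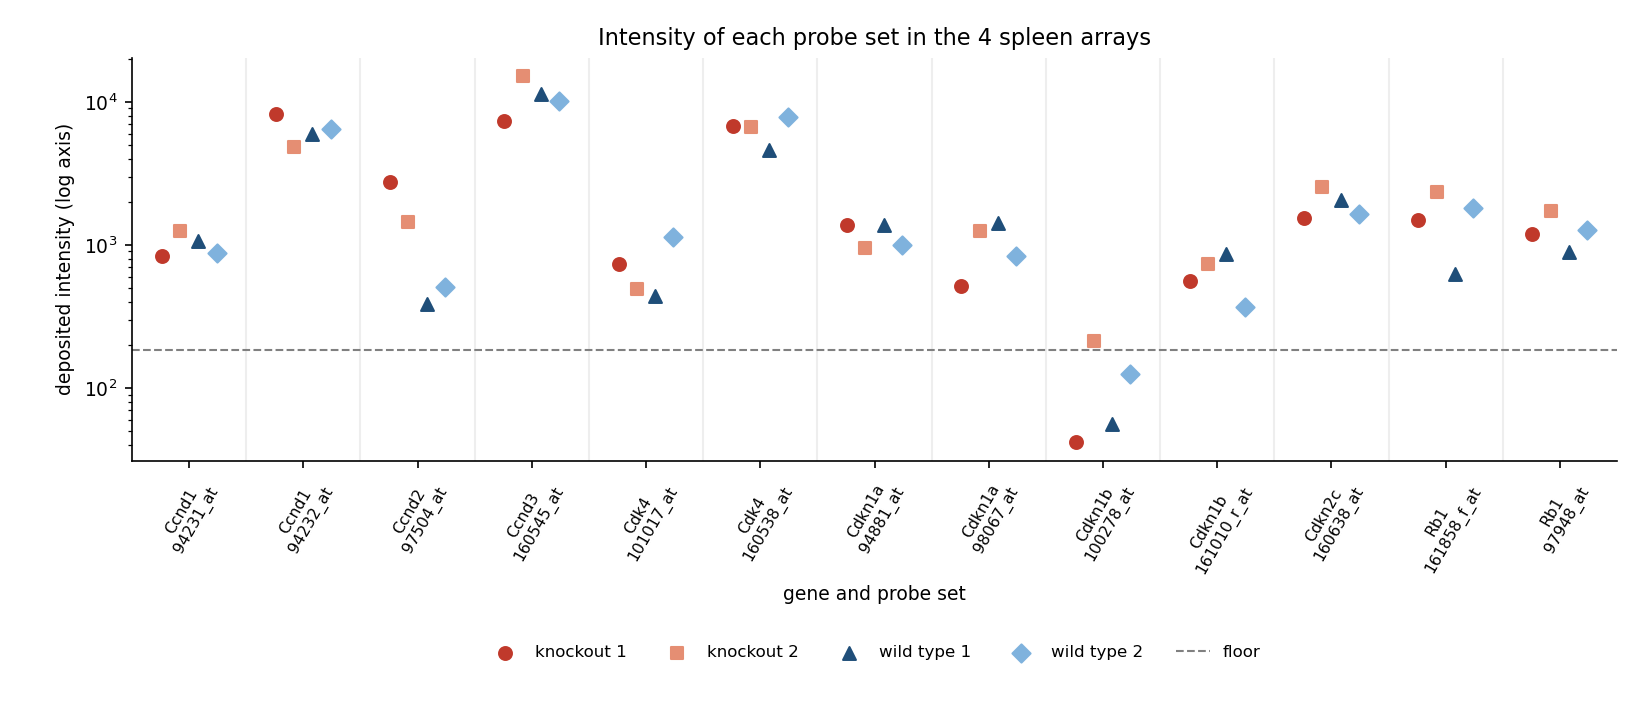
Deposited intensity (log axis) of the 13 probe sets in the 4 arrays, 1 point per array, with knockout left of wild type in each column and the floor of 185.5 as a dashed line. Only for Ccnd2 do both knockout points (1444 and 2740) lie above both wild-type points (389.2 and 506.7), and 3 of the 4 Cdkn1b 100278_at points lie below the floor.

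Ccnd1, encoding the D cyclin found mainly outside the lymphoid lineage, was measured by 2 probe sets. The first (94231_at) gave 841 and 1251 in knockouts, against 1065 and 872.2 in wild types, a log2 difference of 0.09 (SE 0.44). The second (94232_at) gave 8219 and 4834 in knockouts, against 5940 and 6504 in wild types, a log2 difference of 0.02 (SE 0.43). In each, the 2 knockout values lay on either side of both wild-type values, so the genotypes overlapped. The order of the arrays was opposite between them: knockout replicate 1 was the lowest array on the first and the highest on the second.

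Ccnd3, encoding the D cyclin of T cell and red cell precursors, gave 7298 and 15165 in knockouts, against 11305 and 10181 in wild types. The difference was -0.03 (SE 0.48), with the knockout arrays 2.08-fold apart and the wild-type arrays 1.11-fold apart. Knockout replicate 1 was the lowest and knockout replicate 2 the highest of the 4 arrays.

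Cdk4, the kinase partner, was measured by 2 probe sets whose differences had opposite signs. The first (101017_at) gave 740.2 and 494.4 in knockouts, against 436.1 and 1142 in wild types, a log2 difference of -0.22 (SE 0.60). The second (160538_at) gave 6820 and 6669 in knockouts, against 4597 and 7791 in wild types, a log2 difference of 0.17 (SE 0.43). Both placed wild-type replicate 1 lowest, wild-type replicate 2 highest and the knockout arrays between them. Without wild-type replicate 1 the differences were -0.92 and -0.21, and without wild-type replicate 2 they were 0.47 and 0.55, so the direction of Cdk4 depended on which wild-type array was used.

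Cdkn1a, encoding the Cip/Kip inhibitor p21 that p53 induces, overlapped between genotypes on both of its probe sets. The first (94881_at) gave 1381 and 947.1 in knockouts, against 1381 and 993 in wild types, a difference of -0.03 (SE 0.44). The second (98067_at) gave 512.2 and 1245 in knockouts, against 1412 and 837 in wild types, a difference of -0.45 (SE 0.56). On the second, knockout replicate 1 was the lowest array, and without it the difference was 0.20. It was -1.09 without knockout replicate 2, and leaving out the first or the second wild-type array gave -0.07 or -0.82.

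Cdkn1b, encoding the inhibitor p27 that accumulates in resting lymphocytes, was dim on 1 of its 2 probe sets. That probe set (100278_at) gave 41.6 and 213.4 in knockouts, against 56.1 and 126.2 in wild types, with 3 of 4 values below the floor. It did not pass the filter on low values and was not tested. The other (161010_r_at) gave 562.5 and 738.8 in knockouts, against 867.3 and 365.8 in wild types, a difference of 0.19 (SE 0.57), with both knockout values between the wild-type values. Leaving out wild-type replicate 1 gave 0.82 and leaving out wild-type replicate 2 gave -0.43.

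Cdkn2c, encoding the Ink4 inhibitor p18 that acts in plasma cell formation in the mouse, gave 1554 and 2527 in knockouts, against 2062 and 1642 in wild types. The difference was 0.11 (SE 0.43), and the wild-type values lay between the knockout values.

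Rb1, encoding the retinoblastoma protein that the D cyclin kinases phosphorylate, measured higher in knockout on both probe sets without separating the genotypes. The first (161858_f_at) gave 1496 and 2327 in knockouts, against 623.1 and 1818 in wild types, a difference of 0.81 (SE 0.57). The name of that probe set marks it as one that may also read related sequences. The second (97948_at) gave 1193 and 1735 in knockouts, against 890.2 and 1271 in wild types, a difference of 0.44 (SE 0.44). In both, wild-type replicate 1 was the lowest array, and wild-type replicate 2 lay between the knockout arrays. Without wild-type replicate 1 the differences were 0.04 and 0.18, and without wild-type replicate 2 they were 1.58 and 0.69.

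**Figure D2:**
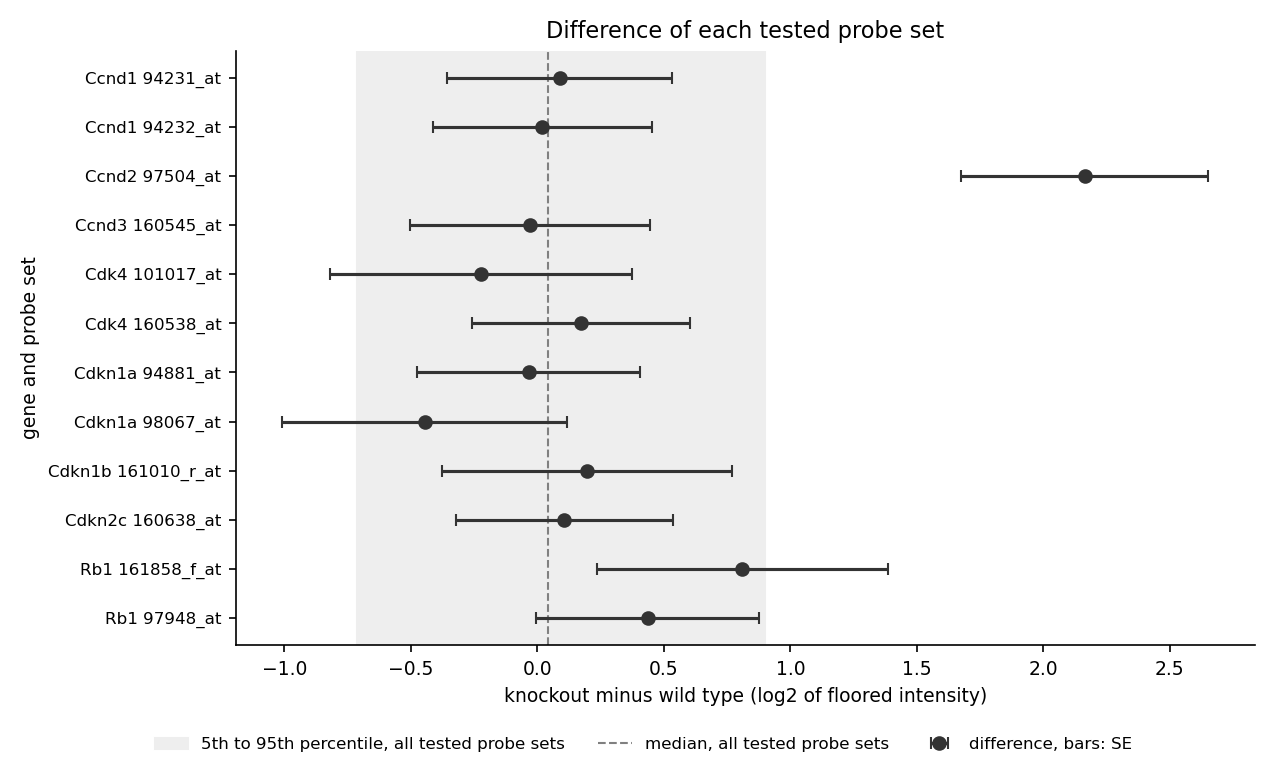
Knockout minus wild-type difference (log2 of floored intensity) of the 12 tested probe sets, with bars of 1 SE from the limma fit. In grey are the 5th to 95th percentile (-0.71 to 0.90) and the median (0.04, dashed) of all 7453 tested probe sets. Ccnd2 lies at 2.16, outside the grey band, and the other 11 lie within it, between -0.45 and 0.81.

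Over the set, 12 of the 13 probe sets passed the filter, 8 measured higher and 4 lower in knockout. Of all tested probe sets 53.7% measured higher and 46.3% lower. The median difference was 0.10 over the members and 0.04 over all tested probe sets, and the median size without regard to sign was 0.18 and 0.32. The sign turned under at least 1 of the alternatives for 9 of the 12, all but Ccnd2 and the 2 Rb1 probe sets. None of the 12 had a limma adjusted p under 0.05, a threshold that 4 of 7453 probe sets (0.0537%) passed. An unadjusted p under 0.05 was reached by 1.74% of all tested probe sets. The groups did not overlap for 1 of the 12, Ccnd2, with knockout higher. Of all tested probe sets 26.4% did not overlap, 14.3% with knockout higher and 12.2% with knockout lower.

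Whether separate probe sets of a gene gave the same picture could be asked for 5 genes. The differences had the same sign for Ccnd1, Cdkn1a, Cdkn1b and Rb1 and opposite signs for Cdk4. With Cdkn1b left out, since 1 of its probe sets was not tested, the sign was shared in 3 of 4 genes, and it was shared in 67.1% of the 759 genes on the array with exactly 2 tested probe sets. The gap between the 2 differences was 0.07 for Ccnd1, 0.39 for Cdk4, 0.41 for Cdkn1a and 0.37 for Rb1, and its median over the 759 genes was 0.32. The pairs of Cdk4 and Rb1 placed the same array lowest and the same array highest, while those of Ccnd1 shared neither.

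**Figure D3:**
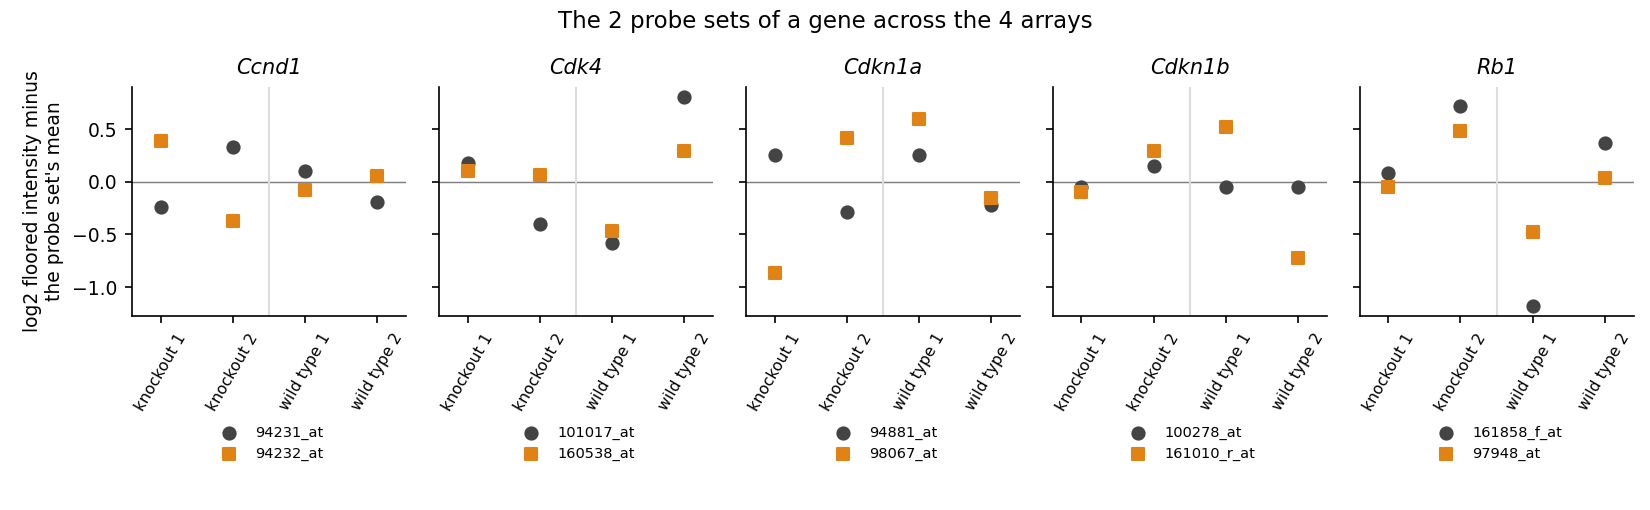
Log2 floored intensity of each array minus the probe set's own mean, for the 5 genes with 2 probe sets (circles and squares), knockout arrays left of wild-type arrays. The 2 probe sets of Rb1 and of Cdk4 follow each other over the arrays, with wild type 1 lowest, and those of Ccnd1 run opposite ways in the knockout arrays.

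The knockout arrays differed from each other in the members by a median of 1.53-fold, against 1.23-fold over all tested probe sets. The wild-type arrays differed by 1.41-fold in the members and 1.56-fold over all. For 3 of the 12 members, Ccnd1 (94231_at), Ccnd3 and Cdkn2c, knockout replicate 1 was the lowest array and knockout replicate 2 the highest, an order held by 5.62% of all tested probe sets. A list of genes of DNA replication and cell division, called S phase readouts here, had this order in 7 of its 13 tested probe sets. In all 13 the second knockout array exceeded the first, at the median 2.24-fold. Pcna, the sliding clamp of DNA polymerase, gave 15128 and 37788 in knockouts, against 20422 and 26891 in wild types. The summed intensity of 13 S phase genes was 77457 and 162828 in knockouts, against 143392 and 131227 in wild types, and that of 6 erythroid markers was 164871 and 280699, against 458754 and 239574. The part of the S phase genes and erythroid markers in the values of Ccnd1 (94231_at), Ccnd3 and Cdkn2c was not tested. The brighter Ccnd1 probe set (94232_at) had the reverse, with knockout replicate 1 the highest array and knockout replicate 2 the lowest. On Ccnd2 knockout replicate 1 was the highest array, and both knockout arrays lay above both wild-type arrays.

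The other genes of the pathway were read from 6 lists of 70 genes in all, of which 57 had a probe set and 45 were tested on 50 probe sets. None passed the limma adjusted p of 0.05 in either direction, 0 had an unadjusted p under 0.05, and the lowest adjusted p was 0.992. Taking the brightest probe set of a gene, 28 measured higher and 17 lower, with a median of 0.05. Without wild-type replicate 1 the balance turned, to 13 higher and 32 lower with a median of -0.11. Without wild-type replicate 2 it was 30 higher and 15 lower, with a median of 0.23. The groups did not overlap for 8 of the 50 probe sets, 6 higher and 2 lower, against 26.4% of all tested probe sets.

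Among the other Cdk inhibitors 2 of 5 genes were bright enough to test. Cdkn3, a phosphatase that acts on Cdks, gave 1624 and 2020 in knockouts, against 4858 and 1827 in wild types, a difference of -0.72 (SE 0.53, limma adjusted p = 0.992). The Ink4 inhibitor gene Cdkn2d differed by -0.01. Wild-type replicate 1 was the highest array for Cdkn3, and without it the difference was -0.01, against -1.42 without wild-type replicate 2.

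Of the Rb family and E2F factors 5 of 10 genes were tested, and all 5 measured higher, between 0.06 and 0.57, with a median of 0.13. Tfdp1, the dimer partner of E2F factors, gave 8193 and 14857 in knockouts, against 6934 and 8004 in wild types (0.57, SE 0.45). On its other probe set the genotypes overlapped, with 2712 and 7047 in knockouts, against 2715 and 3745 in wild types (0.46, SE 0.53). Rbl2, the pocket protein of resting cells, differed by 0.15 and E2f1, the activating E2F, by 0.13. Without wild-type replicate 1, 3 measured higher and 2 lower (median 0.10), and without wild-type replicate 2 all 5 measured higher (median 0.33).

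The later cyclins and their kinases did not separate the genotypes. Of 5 tested genes 4 measured higher and 1 lower, with a median of 0.08, while all 5 measured lower without wild-type replicate 1 (median -0.23) and 4 measured higher and 1 lower without wild-type replicate 2 (median 0.39). The mitotic kinase gene Cdk1 gave 4184 and 7454 in knockouts, against 2594 and 7906 in wild types, a difference of 0.30 (SE 0.60). Ccne1, encoding the cyclin E that follows D cyclins at the start of S phase, differed by -0.10, and the mitotic cyclin gene Ccnb2 by 0.10.

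Genes of Cdk activation and turnover were split, with 6 of 11 higher and 5 lower and a median of 0.05, and with 5 higher and 6 lower when 1 wild-type array was left out (medians of -0.16 without replicate 1 and -0.01 without replicate 2). Wee1, the kinase that holds Cdk1 inactive, gave 682 and 771.3 in knockouts, against 501.3 and 450.6 in wild types (0.61, SE 0.48). Cdc37, the Hsp90 cochaperone that loads kinases such as Cdk4, gave 3641 and 3196 in knockouts, against 5173 and 4457 in wild types (-0.49, SE 0.39). Mnat1, a subunit of the Cdk-activating kinase, gave -0.58 (SE 0.53) on its brightest probe set and -0.20 on the other. The knockout values of Wee1 lay above both wild-type values and those of Cdc37 below both, each with a limma adjusted p of 0.992.

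Of 18 listed genes that act upstream of D cyclins and Cdk inhibitors, 15 had a probe set and 10 were tested. All 10 measured higher, with a median of 0.61, none past the threshold. Dmtf1, a Myb-like factor that binds cyclin D, gave 1030 and 1030 in knockouts, against 294.5 and 690 in wild types (1.19, SE 0.55, limma adjusted p = 0.992). The Polycomb gene Bmi1, a repressor of the Ink4a locus, gave 4890 and 5525 in knockouts, against 1983 and 4614 in wild types (0.78, SE 0.49). Bcl6, a repressor of germinal centre B cells reported to lower Ccnd2, gave 7045 and 4641 in knockouts, against 2595 and 5069 in wild types (0.66, SE 0.48). Wild-type replicate 1 was the lowest array on 6 of the 11 probe sets of this list and the highest on 1. Over all tested probe sets it was the lowest on 39.2% and the highest on 37.3%. Without it 5 measured higher and 5 lower, with a median of 0.07, and without wild-type replicate 2 the median was 1.22.

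S phase readouts measured lower in 9 of 12 tested genes, with a median of -0.21, in 12 of 12 without wild-type replicate 1 (median -0.22) and in 7 of 12 without wild-type replicate 2 (median -0.13). Rrm2, a ribonucleotide reductase subunit, gave 648.7 and 2311 in knockouts, against 1683 and 2397 in wild types (-0.71, SE 0.62). The replicative helicase gene Mcm5 differed by -0.53 (SE 0.48) and the proliferation marker gene Mki67 by -0.53 (SE 0.53). Mcm5 gave 15599 and 23826 in knockouts, against 36631 and 21195 in wild types, so the genotypes overlapped.

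**Figure D4:**
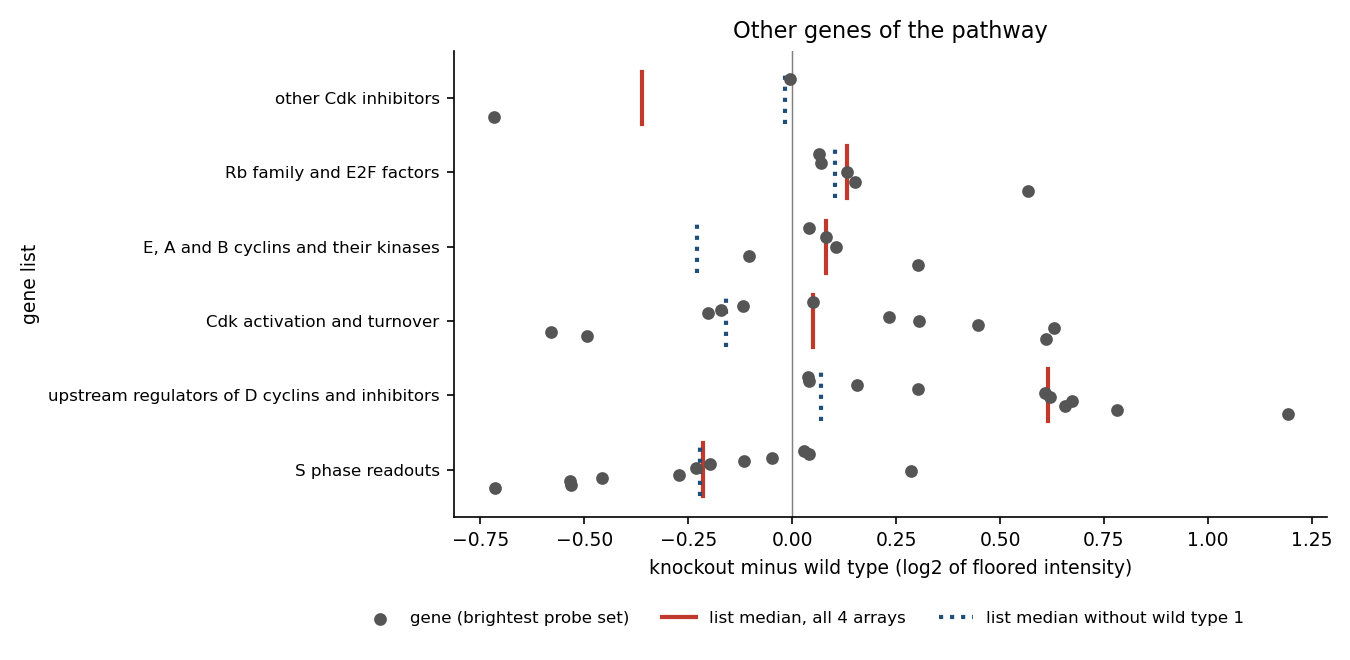
Knockout minus wild-type difference (log2 of floored intensity) of the 45 tested genes of the 6 pathway lists, 1 point per gene, with the list median over 4 arrays (solid) and without wild-type replicate 1 (dotted). The median of the upstream regulators lies at 0.61 with all arrays and at 0.07 without wild-type replicate 1, and that of the S phase readouts at -0.21 and -0.22.

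The genes whose profile over the 4 arrays lay nearest to that of Ccnd2 were named by Euclidean distance between log2 values centred on each probe set's mean, among probe sets with 1 gene name. With only 4 arrays, this is a description of these samples. The chitinase-like gene Chil3, a product of macrophages and neutrophils, was nearest at 0.82, and gave 33018 and 29418 in knockouts, against 8527 and 6056 in wild types. Mgst1, a microsomal glutathione transferase, followed at 0.86, giving 4033 and 4785 in knockouts, against 1038 and 1271 in wild types. Ift88, a ciliary transport gene, lay at 0.97, Fpr2, a formyl peptide receptor of phagocytes, at 1.004 and Selp, P-selectin of platelets and endothelium, at 1.03.

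Marker lists of cell types were read beside Ccnd2, with no test. Platelet markers, which include the Selp named above among the profiles nearest to Ccnd2, measured higher in 4 of 4 genes. Their sums were 7136 and 7359 in knockouts, against 5332 and 2660 in wild types. Neutrophil markers measured higher in 9 of 9, although their sums overlapped, at 480710 and 545650 in knockouts, against 692792 and 168313 in wild types. B cell markers measured lower in 7 of 8 and T cell markers in 8 of 9. The B cell sum was 320554 in wild-type replicate 1 but 171111 in wild-type replicate 2, near the 170307 of knockout replicate 1. Erythroid markers measured lower in 6 of 6, although their sums, given above, overlapped. Exocrine pancreas markers measured lower in 6 of 7, with sums of 9310 and 10922 in knockouts, against 81790 and 21128 in wild types. Splenic macrophage markers measured higher in 5 of 9, with sums of 172016 and 128122, against 136207 and 149618. No marker of these lists was at 0 or below the floor in all 4 arrays. Their part in the Ccnd2 difference was not tested.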

How the data were processed

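The authors deposited linear 1-colour intensities, 1 for each of 12488 probe sets in each of 4 arrays. Which software and scaling they applied is not given in the sources used here. Trimmed means were nearly equal (2483 to 2494 without 66 control probe sets), so the intensities were not rescaled. Values under the pooled 25th percentile (185.5) were raised to it before log2. The 7453 of 12422 probe sets with a mean log2 above the 40th percentile (8.87) were tested with limma 3.58.1 in R 4.3.3 (lmFit, eBayes with an intensity trend), two-sided, with Benjamini-Hochberg adjustment over all of them. The fit was tested on simulated data. A fold understates the difference of dim genes, and 2 arrays per group limit the precision. Symbols came from the platform annotation, updated by gene identifier, and 10833 probe sets had 1 symbol. The members and lists were chosen with earlier results of these data known. Besides all members, up to 3 genes per pathway list with the smallest p and the 5 profiles nearest to Ccnd2 were named, and Pcna was chosen after its values were seen. Other scalings, floors, filters, variance models, a replicate block and leaving out each array were tried.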

Additional observations from a re-analysis of the deposited data

How the results depend on the processing

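The count of 4 probe sets past the threshold was 7 with a pseudocount in place of the floor, 0 without the filter on dim probe sets and 36 with the replicate block, and ranged from 3 to 13 with 1 array left out (10 without knockout replicate 1 and 13 without knockout replicate 2). Of the members, 0 passed under 12 of 13 alternatives, and 1, Ccnd2, passed with the replicate block. The labels do not state that the number pairs samples, and same-numbered arrays did not deviate together (r = 0.04 across probe sets). No pathway probe set passed under any of the 13 alternatives. The median difference of the members, 0.10, ranged from 0.016 to 0.38 with 1 array left out, with the highest value without knockout replicate 1. Ccnd2 ranged from 1.70 to 2.63 over the 12 alternatives in which it was tested, and did not pass the 60th percentile filter. The sign turned in 18 of 149 values of single member probe sets, in 9 of the 12 probe sets. The planned comparison between Ccnd2 probe sets gave no value, because there was 1.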
